A study of Homo sapiens with 10 samples.

Results

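The genes of DNA replication and of mitosis were followed as a group across prostate cancer cell lines in continuous growth. They were 43 of the 60642 gene symbols of the deposited expression table, listed by name for their known role, with 21 genes of replication and 22 of mitosis. No measured value was a criterion for the list, but earlier results of these data were known when it was made. All 43 were rows of the table with a value in all 10 samples. The series holds untreated human lines LNCaP, DUCAP, VCAP, DU145 and PC3, with 2 biological repeats of each. All lines grew in phenol-red-free RPMI medium with fetal bovine serum and were harvested for RNA while growing exponentially. The sample labels give the serum share as 5 to 10% for all lines together, while the paper of the study states 5% for every line. If the share did differ between the lines, its effect cannot be told apart from that of the line. LNCaP was derived from a lymph node metastasis, DU145 from a brain metastasis and PC3 from a bone metastasis, while DUCAP and VCAP came from separate metastases of the same patient, so these are not independent tumours. RNA was sequenced after polyA enrichment and the values are TPM, relative transcript abundances scaled for transcript length and to a fixed total per sample. Nothing beyond the word biological says how separately the repeats were grown, so every test below measures the spread between those samples. In bulk samples, fewer cycling cells and less of these transcripts per cycling cell cannot be told apart.

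Before a cell copies its DNA, CDC6 and CDT1 load the ring-shaped MCM2-7 helicase onto replication origins. In S phase MCM10, CDC45 and the GINS complex turn the ring into a moving helicase, the polymerases copy the strands behind it with PCNA as their sliding clamp, and ribonucleotide reductase and thymidylate synthase supply the nucleotides. Most genes of this phase are switched on by E2F factors at the start of S phase. Genes of mitosis peak later, in G2 and M phase, and many are held down outside that window through a promoter element called the CHR (cell cycle genes homology region), often near CCAAT boxes that bind the factor NF-Y. Both groups are used as markers of proliferation in tumours, usually without being told apart.

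The promoters show how the groups differ in sequence. RefSeq promoters (build GRCh38.p14) were matched for 35 of the 43 genes, 18 of replication and 17 of mitosis, and the 250 bases before the listed start were read on both strands. The genes without an entry were AURKA, BIRC5, GINS4, MCM4, MCM5, TPX2, TTK and UBE2C. The CHR, searched as TTTGAA, was in 8 of 17 mitotic promoters (47.1%), in 1 of 18 replication promoters (5.56%) and in 13.3% of the 35116 promoters of the table. An E2F motif, searched as TTCCCGC (the first of 4 forms), as TTCGCGC (the second form), as TTGGCGC (the third form) or as TTGCCGC (the fourth form), was in 10 of 18 replication promoters (55.6%), in 3 of 17 mitotic promoters (17.6%) and in 10.9% of all promoters. A CCAAT box was in 13 of 18 replication promoters (72.2%) and in 14 of 17 mitotic promoters (82.4%), against 32.0% of all. The CHR together with a CCAAT box was in 7 of 17 mitotic promoters (41.2%), 1 of 18 replication promoters (5.56%) and 4.69% of all. A second CHR form, TTTAAA, which was added after the first search had been seen, was in 8 of 17 mitotic (47.1%), 1 of 18 replication (5.56%) and 11.3% of all promoters. These are matches of letters and were not tested as binding sites.

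The promoters shown were picked for their matches from the 14 genes listed in advance. TOP2A and MKI67 had the most matches of the CHR with a CCAAT box among the mitotic genes of that list. MCM7 had the most E2F matches among its replication genes. PCNA came next with 1 match, tied with TYMS and taken first by name. Each sequence is the stretch before the start, 5′ to 3′ on the strand of the gene. In the mitotic pair the capitals mark the CHR (TTTGAA, or TTCAAA where it lies on the other strand) and the CCAAT box (CCAAT or ATTGG), and in MKI67 a CHR and a CCAAT box share bases. In the replication pair the capitals mark the E2F motif on either strand. TOP2A lies at chr17:40417897-40418146, MKI67 at chr10:128126424-128126673, MCM7 at chr7:100101398-100101647 and PCNA at chr20:5126623-5126872, all on the minus strand.
TOP2A: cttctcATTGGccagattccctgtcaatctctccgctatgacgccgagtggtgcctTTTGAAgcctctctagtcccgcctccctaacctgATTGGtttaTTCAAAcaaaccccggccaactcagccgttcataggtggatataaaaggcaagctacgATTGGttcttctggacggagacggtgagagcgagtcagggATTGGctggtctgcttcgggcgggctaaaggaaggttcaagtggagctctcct
MKI67: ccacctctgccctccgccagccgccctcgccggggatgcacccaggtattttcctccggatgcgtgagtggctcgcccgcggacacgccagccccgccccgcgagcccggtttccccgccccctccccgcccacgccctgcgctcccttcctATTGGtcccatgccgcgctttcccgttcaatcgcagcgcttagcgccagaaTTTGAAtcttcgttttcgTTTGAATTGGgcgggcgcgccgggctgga
MCM7: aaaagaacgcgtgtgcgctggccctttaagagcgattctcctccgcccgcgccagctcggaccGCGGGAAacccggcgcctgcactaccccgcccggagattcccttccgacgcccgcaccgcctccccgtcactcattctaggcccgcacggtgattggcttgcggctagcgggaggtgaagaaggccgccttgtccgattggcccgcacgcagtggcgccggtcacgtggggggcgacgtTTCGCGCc
PCNA: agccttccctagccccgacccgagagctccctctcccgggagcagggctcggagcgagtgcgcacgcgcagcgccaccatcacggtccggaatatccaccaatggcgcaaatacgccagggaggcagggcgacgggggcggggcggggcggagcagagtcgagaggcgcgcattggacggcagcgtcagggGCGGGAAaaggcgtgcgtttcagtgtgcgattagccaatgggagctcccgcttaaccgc

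The samples as a whole set limits on these values. TPM keep no record of depth, so precision rests on the repeats alone. Mitochondrial transcripts took between 12.7% and 36.0% of the TPM of a sample, with the highest shares in DUCAP and VCAP, and this moved the share left for other genes. The summed level of the 6 prostate luminal markers, among them KLK3, was between 3182 and 8841 TPM in LNCaP, DUCAP and VCAP, between 354 and 567 TPM in PC3, where HOXB13 made up most of it, and between 11.8 and 12.9 TPM in DU145. The 3 epithelial markers EPCAM, KRT8 and KRT18 were present in every sample, with sums between 432 and 2045 TPM. The 5 markers of blood, endothelial and stromal cells summed to between 0.08 and 5.95 TPM, with the highest sums in VCAP, where LUM gave most of it, and PTPRC, PECAM1 and COL1A2 were at or below 0.43 TPM in every sample. The repeats of DU145 stood apart for the cell cycle genes, as given next, and results that rest on DU145 are given with and without it.

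Every one of the 43 genes was higher in DU145 repeat 2 than in DU145 repeat 1, as 45.8% of all genes were. The level in repeat 2 was at least 2-fold higher, on the log2(TPM + 1) scale used throughout, for 36 genes, 19 of 21 replication genes and 17 of 22 mitotic genes, and for 3.78% of all 17520 genes tested. No member was 2-fold higher in repeat 1, as 5.7% of all genes were. The median difference, repeat 1 minus repeat 2, was -1.35 for replication genes and -1.07 for mitotic genes, a 2.55-fold and a 2.10-fold higher level in repeat 2, against a median of 0.0 over all genes tested. CDC6, the origin licensing factor, was at 23.2 TPM in repeat 1 and 91.8 TPM in repeat 2. RRM2, the regulated subunit of ribonucleotide reductase, was at 77.0 and 293 TPM, and CDC45 was at 14.4 and 56.9 TPM. These were the largest differences, at -1.94, -1.91 and -1.91, and POLE, the catalytic subunit of DNA polymerase epsilon, had the smallest at -0.39, with 17.9 and 23.8 TPM. Mitochondrial transcripts took 22.5% of the TPM in repeat 1 and 15.3% in repeat 2, and the epithelial marker sum was 1680 and 2045 TPM. With the TPM rescaled without mitochondrial genes, all 43 members were still higher in repeat 2, with 16 replication and 9 mitotic genes at least 2-fold higher. The sample titles of DU145 carry the numbers 1 and 3 and those of PC3 the numbers 2 and 3, without saying what they count. With 1 sample on each side there is no test of this difference.

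In the other 4 lines no member differed 2-fold between the repeats on the log2(TPM + 1) scale. By TPM alone GINS4, a subunit of the GINS complex, was 2.62-fold higher in DUCAP repeat 2, and it was the member counted as 2-fold different there with a pseudocount of 0.1 and with the TPM rescaled without mitochondrial genes. In LNCaP, 0.468% of all genes were 2-fold higher in repeat 1 and 0.474% in repeat 2, and in DUCAP 0.434% and 0.468%. In VCAP the shares were 1.55% and 0.576%, and in PC3 0.531% and 0.462%. Repeat 1 was higher for 41 of 43 members in LNCaP, with 48.4% of all genes, and for 32 in PC3, with 55.8%. Repeat 2 was higher for 42 members in DUCAP, with 64.3% of all genes, and for 38 in VCAP, with 48.9%. In PC3 the mitotic genes split into 14 and 8, and into 11 and 11 after median-ratio scaling. In VCAP the 5 exceptions were replication genes, and all 22 mitotic genes were higher in repeat 2. The median differences of replication and mitotic genes were 0.29 and 0.24 for LNCaP, -0.49 and -0.39 for DUCAP, -0.34 and -0.53 for VCAP, and 0.14 and 0.07 for PC3, with a median over all genes of -0.09 for DUCAP and 0.03 for PC3.

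**Figure D1:**
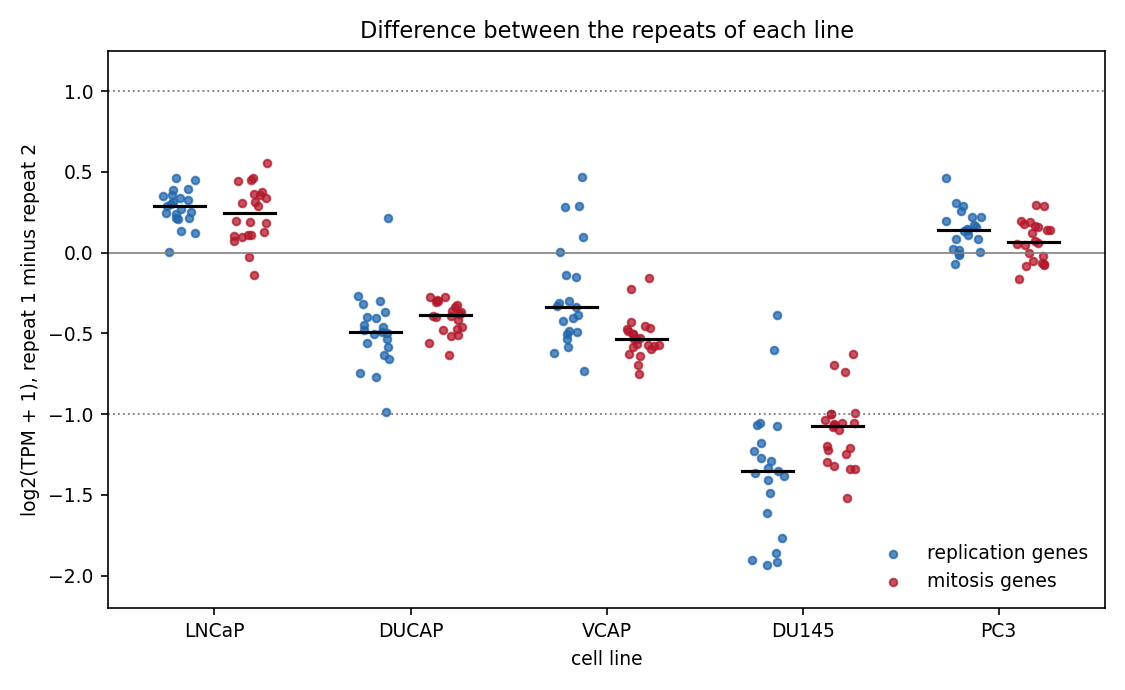
Difference in log2(TPM + 1) between repeat 1 and repeat 2 of each line, with a point for each of the 21 replication genes (blue) and 22 mitotic genes (red), a black bar at the median and dotted lines at a 2-fold difference. All DU145 points lie below 0 and 36 of 43 lie at or below the lower dotted line, while no point of another line reaches a dotted line.

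Centring each sample removes any shift common to the members by construction. When each sample was centred on its own mean over the 43 genes, the median absolute difference between repeats went from 1.22 to 0.17 for DU145, from 0.49 to 0.17 for VCAP, from 0.42 to 0.08 for DUCAP, from 0.29 to 0.10 for LNCaP and from 0.14 to 0.09 for PC3. No member in any line then differed 2-fold between its repeats. These values describe what remained between the repeats and are no test.

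The balance between the groups set LNCaP below all other samples. It was taken as the mean log2(TPM + 1) of the 22 mitotic genes minus that of the 21 replication genes. In LNCaP it was 0.08 in repeat 1 and 0.12 in repeat 2, so that both groups stood at nearly the same mean level. PC3 had 0.58 and 0.65 and DU145 had 0.84 and 0.58, and these lines overlapped. VCAP had 1.01 and 1.26 and DUCAP 1.298 and 1.21, which overlapped with each other and lay above the other lines. The SD between repeats was 0.120, pooled over the lines, and the SD of the line means was 0.460, a ratio of 3.83. For the mitotic mean alone the ratio was 0.910 and for the replication mean 0.721 over all 10 samples. Each line mean averages 2 repeats and varies less than a single sample, so a ratio of 1 is not the level without line differences. The balance also removes any shift that both groups share between repeats, which lowers its SD between repeats. Without DU145 these ratios were 1.42 for the mitotic mean, 1.20 for the replication mean and 5.34 for the balance. Against the mean of the other 4 lines LNCaP had a balance of -0.83, PC3 of -0.19 and DU145 of -0.07, while VCAP had 0.46 and DUCAP 0.62. Without both DU145 samples it was -0.90, 0.64, 0.48 and -0.22 in LNCaP, DUCAP, VCAP and PC3. Without TOP2A, MKI67, CCNA2, CDC6, CDT1 and TYMS it was -0.67 in LNCaP and 0.27 in VCAP. The balance is a description of chosen genes and carries no p-value.

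On the deposited scale the lines reached their place in different ways. LNCaP had the lowest mitotic mean, at 5.25 and 5.01, with a replication mean of 5.17 and 4.89. DUCAP had the lowest replication mean, at 4.22 and 4.703, with a mitotic mean of 5.51 and 5.92. The VCAP means were 4.71 and 4.97 for replication and 5.71 and 6.24 for mitosis. PC3 lay between these, at 5.10 and 4.96 for replication and 5.68 and 5.61 for mitosis. The DU145 repeats were farther apart than those of any other line, at 4.72 and 6.08 for replication and 5.56 and 6.66 for mitosis. The lowest place of DUCAP for replication depended on the scale. After quantile normalization its replication mean was 4.81 and 5.13, against 4.69 and 4.61 in PC3. After median-ratio scaling it was 4.75 and 5.11, against 4.76 and 4.69 in PC3.

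**Figure D2:**
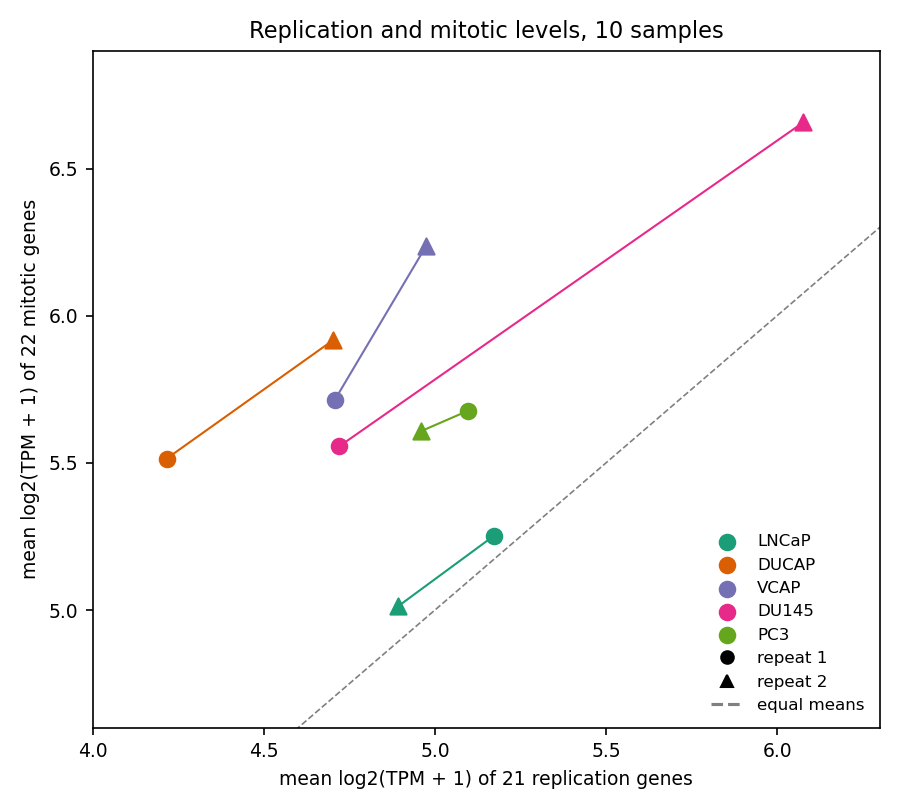
Mean log2(TPM + 1) of 21 replication genes (x axis) against that of 22 mitotic genes (y axis) for 10 samples, with circles for repeat 1, triangles for repeat 2, a line joining the repeats and a dashed line where the means are equal. LNCaP lies nearest the dashed line, with mitotic minus replication values of 0.08 and 0.12, DUCAP and VCAP lie farthest above it, and the DU145 repeats are far apart along a direction roughly parallel to it.

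Fewer of these genes passed a test for any difference between the lines than of genes in general. By limma's F test with Benjamini-Hochberg adjustment, 23 of 43 members were called at an adjusted p under 0.05, 11 of 21 replication genes and 12 of 22 mitotic genes, against 90.8% of all genes tested. Without both DU145 samples 29 of 43 were called, against 90.3% of all genes. The members had a median SD between repeats of 0.454 on the log2 scale, with 0.200 over all genes, and a median SD of the line means of 0.493, with 0.706 over all genes. Without DU145 the SD between repeats was 0.258 for members and 0.157 for all genes. The largest F statistics belonged to TOP2A at 44.3, CDT1 at 38.9, POLE2 at 17.9, MKI67 at 15.9, KIF20A at 14.2 and BIRC5 at 11.8. CDC6 had the smallest, at 0.388 with an adjusted p of 0.813, followed by CDK1 at 0.621 with 0.663.

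**Figure D3:**
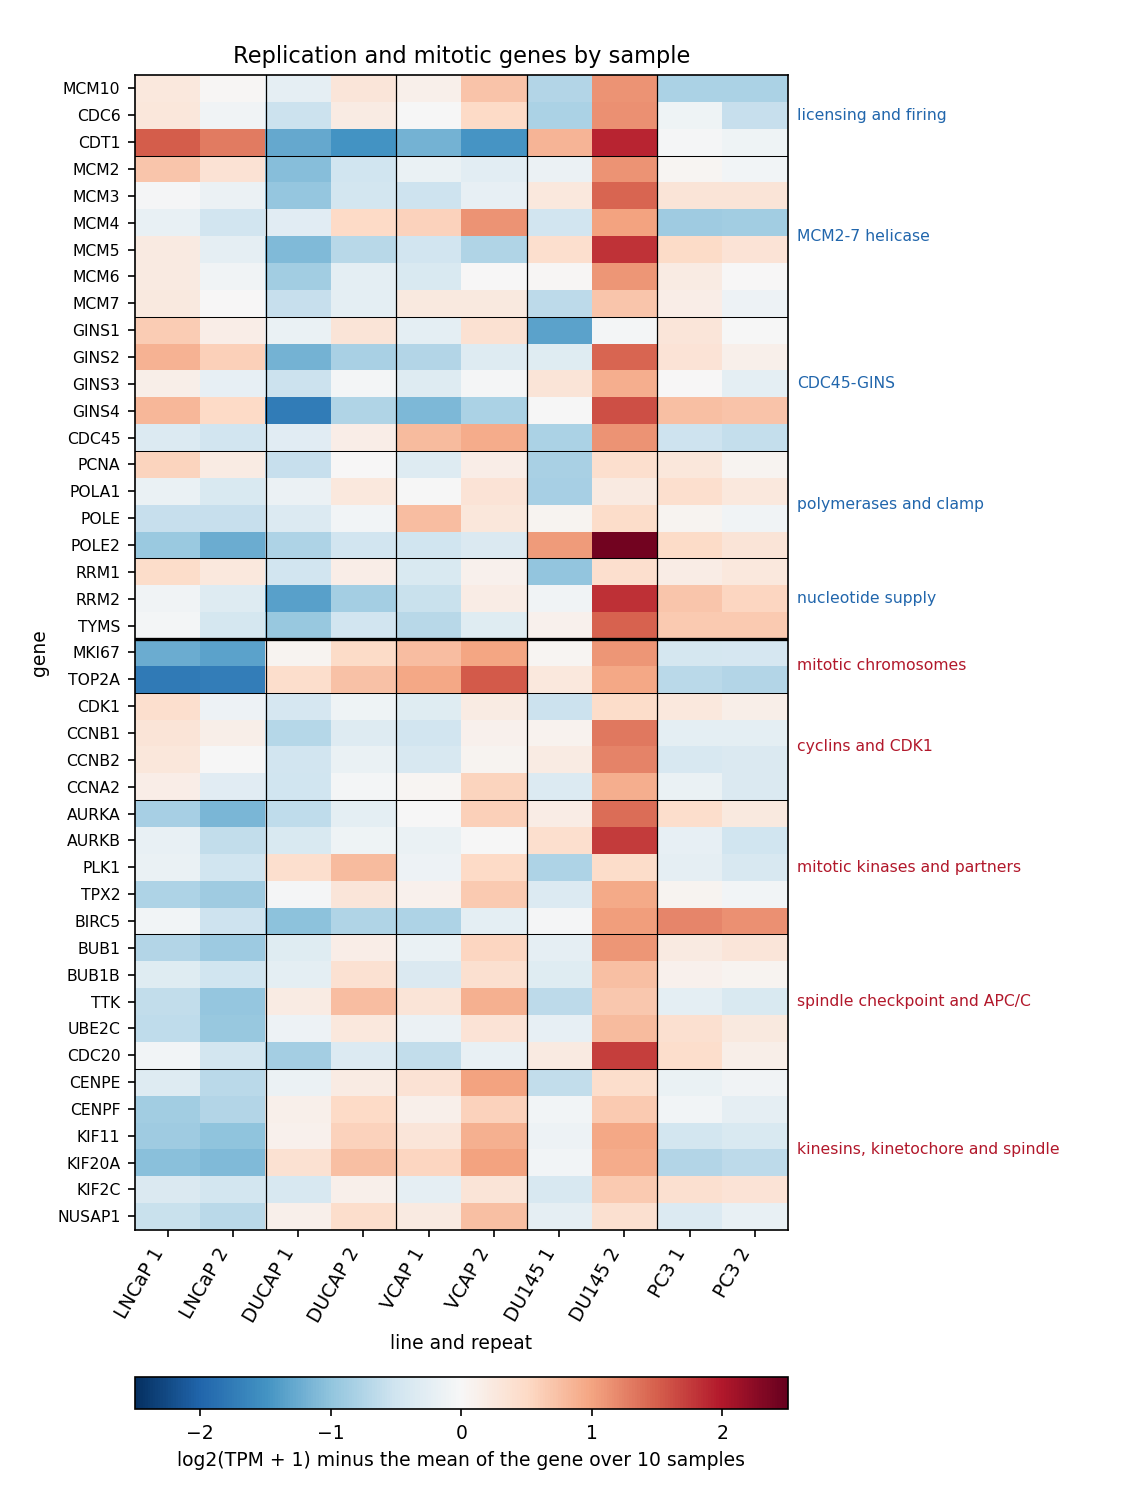
log2(TPM + 1) of the 43 genes in 10 samples, each row centred on its mean, with rows grouped by role, replication above the thick line and mitosis below it. The DU145 repeat 2 column is high for nearly all rows, TOP2A and MKI67 are low in both LNCaP samples, and CDT1 is low in DUCAP and VCAP.

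Each line was then compared with the mean of the other 4 lines, again by limma with adjustment over all 17520 genes, and these comparisons share their samples. In LNCaP, 11 of 22 mitotic genes were lower and none was higher, while 1 replication gene was higher and 2 were lower. Over all genes 38.2% were higher and 24.2% lower in this comparison. For 12 members, 10 mitotic and 2 of replication, both LNCaP samples lay below all 8 other samples, as they did for 6.96% of all genes. In DUCAP, 9 of 21 replication genes were lower and none was higher, and 2 mitotic genes were higher and 1 lower, with 11.1% of all genes higher and 57.7% lower. In VCAP, 6 mitotic genes were higher and none was lower, and 3 replication genes were higher and 2 lower, with 17.3% and 46.6% over all genes. In DU145, 6 replication and 7 mitotic genes were higher and 1 replication gene was lower, with 40.7% and 22.3% over all genes. In PC3, 1 gene of each group was higher, and 1 replication gene and 2 mitotic genes were lower, with 43.2% and 24.7% over all genes.

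**Figure D4:**
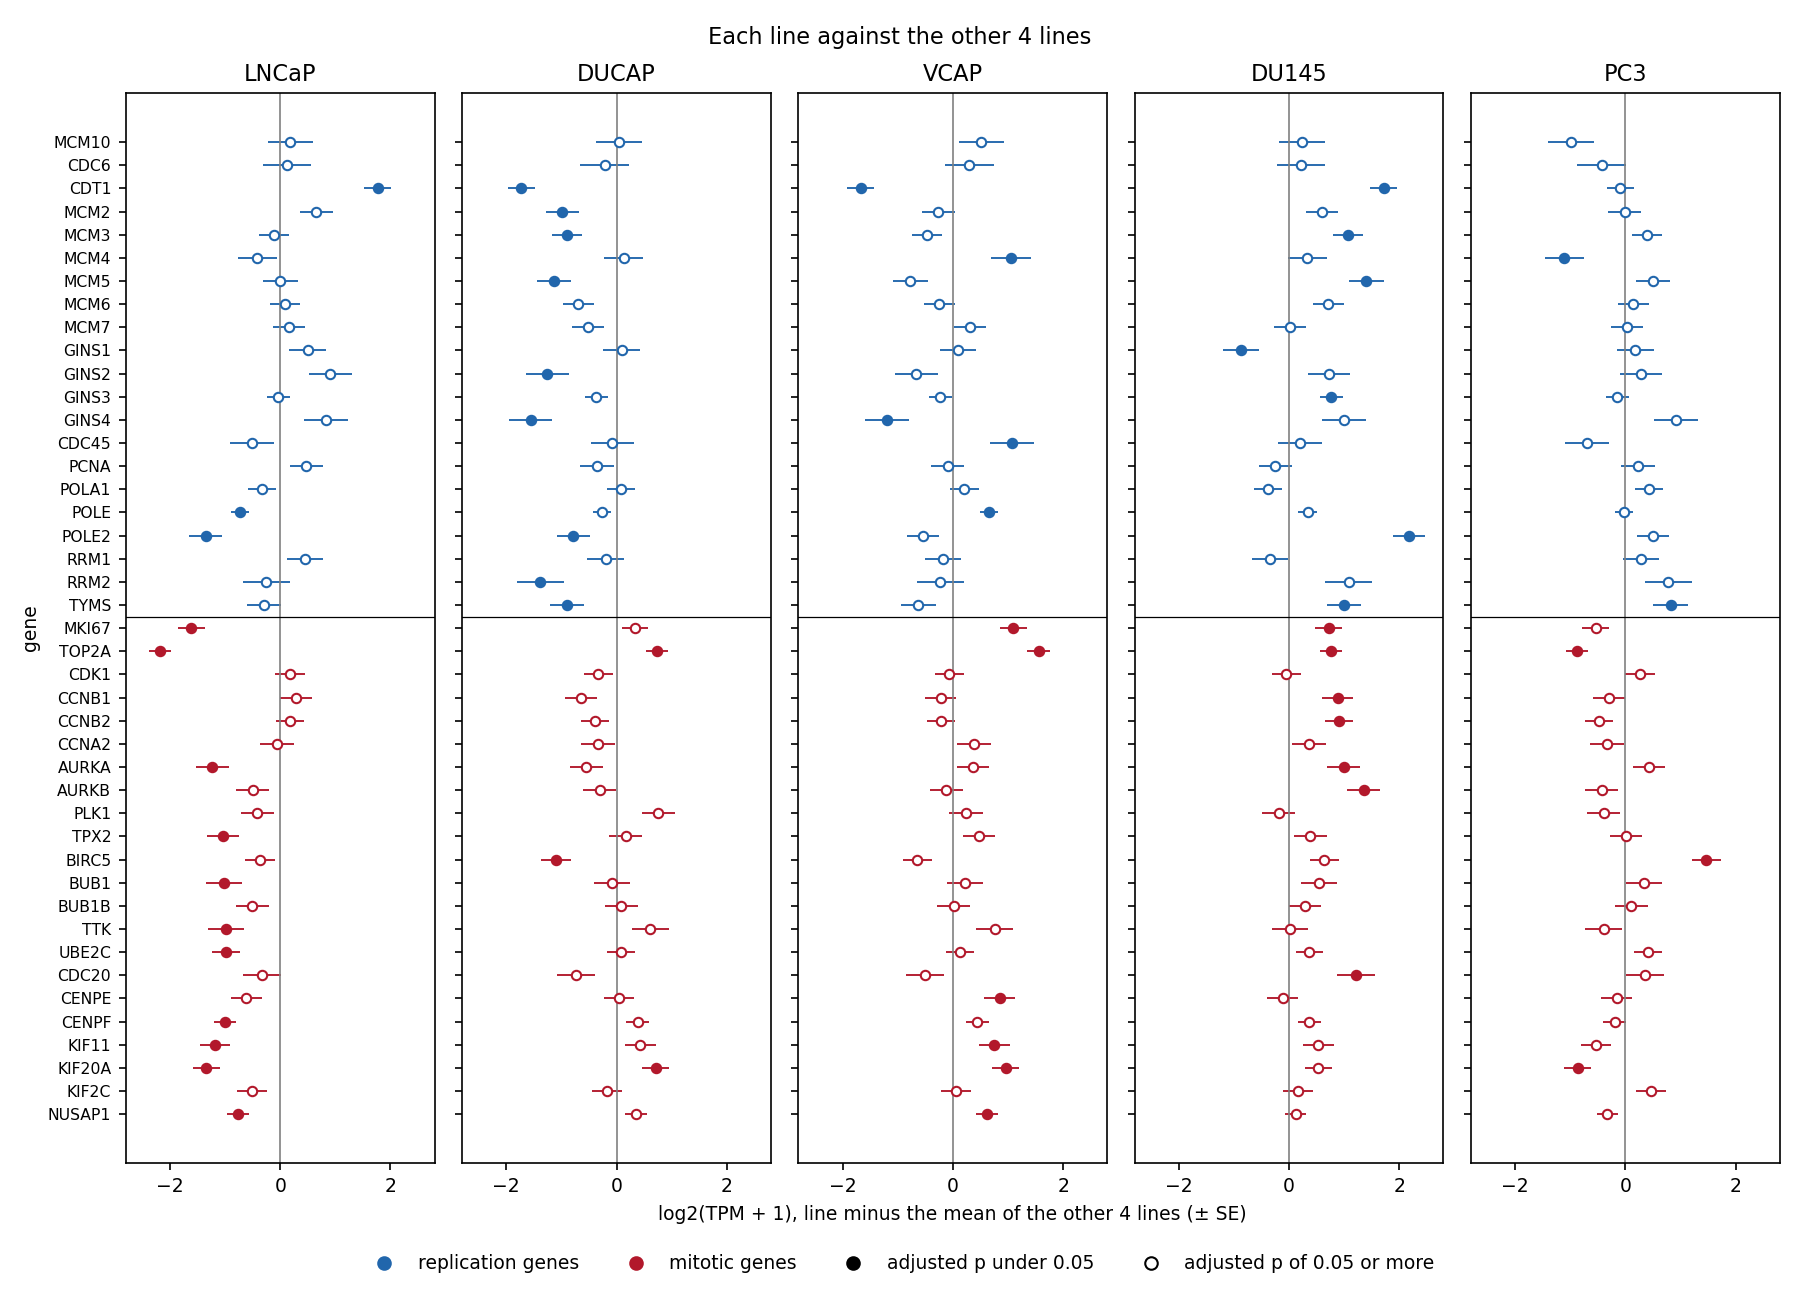
Difference in log2(TPM + 1) between each line and the mean of the other 4 lines for the 43 genes, with the SE of limma as bars, blue for replication and red for mitosis, and filled points where the adjusted p was under 0.05. Filled red points lie left of 0 in LNCaP (11 of 22 genes) and right of 0 in VCAP (6), and filled blue points lie left of 0 in DUCAP (9 of 21).

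The TPM of a whole sample set the reference for these directions. Over all genes tested the median difference was 0.18 for LNCaP, 0.26 for PC3, 0.23 for DU145, -0.54 for DUCAP and -0.36 for VCAP. Relative to it, the median mitotic gene lay at -0.87 for LNCaP, -0.51 for PC3, 0.23 for DU145, 0.60 for DUCAP and 0.66 for VCAP, and the median replication gene at -0.09, -0.08, 0.37, 0.03 and 0.14 in the same order of lines. The sign of the mitotic median was the same as deposited, at -0.69, -0.25, 0.46, 0.06 and 0.30, and under each of the 4 other settings of the scale (quantile normalization, median-ratio scaling, TPM without mitochondrial genes and a pseudocount of 0.1). With 1 sample left out it turned in 3 lines. The mitotic median was -0.18, -0.02 and -0.07 in DUCAP without DUCAP repeat 2, VCAP repeat 1 or DU145 repeat 1, -0.0054 in VCAP without VCAP repeat 2 and -0.07 in DU145 without DU145 repeat 2. For replication the median of -0.51 in DUCAP became 0.11 under quantile normalization and 0.13 under median-ratio scaling, and that of -0.22 in VCAP became 0.21 and 0.15. In LNCaP the replication median of 0.09 became -0.15 and -0.22, and in PC3 0.18 became -0.28 and -0.18, while in DU145 it stayed above 0 under all 4. It was -0.03 in DU145 without DU145 repeat 2, -0.07 and -0.11 in LNCaP without LNCaP repeat 1 or DU145 repeat 1, and 0.06 in VCAP without VCAP repeat 1. With the TPM rescaled without mitochondrial genes it was -0.03 in LNCaP, 0.04 in VCAP and -0.04 in PC3. The calls moved with the scaling. In DUCAP the replication calls went from 9 lower and none higher to 1 lower and 1 higher after quantile normalization. After median-ratio scaling they were 2 lower and 1 higher. The mitotic calls there went from 2 higher and 1 lower to 11 and 10 higher with none lower, in the same order. Over all genes the share called higher in DUCAP went to 28.4% and 25.8% and that called lower to 30.7% and 34.1%. In PC3 the lower mitotic calls went from 2 to 12 and 9, with 35.9% and 33.3% of all genes lower, and in LNCaP from 11 to 15 under both, with 31.0% and 32.6%. With no filter on low values 18 of the 56 calls of a member in a line were lost, each of which was also lost under another alternative.

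The counts of the other lines were larger without the DU145 samples. Then, against the other 3 lines, LNCaP had 4 replication genes higher and 4 lower and 2 mitotic genes higher and 13 lower, with 45.8% of all genes higher and 23.5% lower. DUCAP had 10 replication genes lower and 8 mitotic genes higher and 2 lower, with 11.6% and 59.0% over all genes. VCAP had 5 replication genes higher and 3 lower and 10 mitotic genes higher and 1 lower, with 19.5% and 46.5%. PC3 had 8 replication genes higher and 3 lower and 5 mitotic genes higher and 3 lower, with 50.2% and 25.3%. For DU145 itself the choice of repeat decided the count. Without repeat 1, 17 replication and 16 mitotic genes were called, all of them higher, with 40.3% of all genes higher and 21.9% lower. Without repeat 2, 3 replication genes were higher and 6 lower, with 1 mitotic gene in each direction and 39.2% and 21.6% over all genes.

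Among the factors that license and fire origins, CDT1 varied most between the lines. CDT1 was at 28.5 and 24.4 TPM in LNCaP and at 17.4 and 37.6 TPM in DU145, against 3.26 and 2.67 TPM in DUCAP, 3.51 and 2.70 TPM in VCAP and 9.10 and 8.51 TPM in PC3. LNCaP and DU145 overlapped at the high end, DUCAP and VCAP overlapped at the low end, and PC3 lay between. The log2 difference from the other 4 lines was 1.76 (SE 0.25, limma adjusted p = 0.00037) in LNCaP and 1.72 (SE 0.25, adjusted p = 0.000413) in DU145. It was -1.73 (SE 0.25, adjusted p = 0.000398) in DUCAP and -1.67 (SE 0.25, adjusted p = 0.000537) in VCAP. These 4 calls held under each scaling and with each sample left out in turn. CDC6, which works beside CDT1, did not follow it, at 50.5 and 38.3 TPM in LNCaP, 37.9 and 27.2 in PC3, 23.2 and 91.8 in DU145, 27.9 and 47.4 in DUCAP and 40.7 and 58.1 in VCAP. No line lay clear of all others for CDC6, though both PC3 samples lay below those of LNCaP and VCAP. The DU145 repeats lay on either side of all other samples. MCM10, which helps to activate the helicase, ranged from 6.11 to 25.7 TPM, and both PC3 samples lay below the other 8. Its difference in PC3 was -0.99 (SE 0.41) with a limma adjusted p of 0.0613, so it was not called.

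The 6 subunits of the MCM2-7 ring did not move as a unit. MCM2 was at 62.3 and 49.0 TPM in LNCaP, 39.4 and 36.4 in PC3, 34.2 and 83.8 in DU145, 17.7 and 26.6 in DUCAP and 34.1 and 31.7 in VCAP. MCM5 was at 48.0 and 34.8 TPM in LNCaP, 56.9 and 51.7 in PC3, 55.3 and 146 in DU145, 18.4 and 24.7 in DUCAP and 29.1 and 23.7 in VCAP. MCM7 was at 124 and 105 TPM in LNCaP, 117 and 95.6 in PC3, 65.4 and 168 in DU145, 69.9 and 87.3 in DUCAP and 124 and 124 in VCAP. MCM2 and MCM5 were thus lowest in DUCAP, with both DUCAP samples below all 8 others for MCM2. For MCM7 both DUCAP samples lay below LNCaP, PC3 and VCAP but between the DU145 repeats, and MCM7 was called in no line. In DUCAP, MCM2, MCM3 and MCM5 were lower, by -0.98, -0.89 and -1.13, and all 3 calls were lost without DUCAP repeat 1 and under either median-ratio scaling or quantile normalization. MCM4 behaved differently from its partners. It was at 201 and 292 TPM in VCAP and 110 and 189 TPM in DUCAP, against 118 and 96.5 in LNCaP, 71.9 and 72.8 in PC3 and 96.1 and 272 in DU145. The 2 PC3 samples were the lowest of all 10 and the VCAP samples were high, overlapping with DUCAP and DU145. Its difference was 1.06 (SE 0.36, limma adjusted p = 0.0304) in VCAP and -1.11 (SE 0.36, adjusted p = 0.0237) in PC3. The VCAP call was lost without either VCAP repeat and 5 further times when another sample was left out, and the PC3 call was lost without either PC3 repeat or LNCaP repeat 1. MCM3 and MCM5 were higher in DU145, by 1.07 and 1.40, the first lost without DU145 repeat 2, and MCM6, from 15.8 to 65.2 TPM, was called in no line.

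CDC45 and the 4 GINS subunits, which complete the helicase, also split. CDC45 had its highest mean in VCAP, at 45.1 and 50.1 TPM, with 20.9 and 29.0 in DUCAP, 20.1 and 18.2 in LNCaP, 17.7 and 16.7 in PC3 and 14.4 and 56.9 in DU145. The VCAP difference was 1.08 (SE 0.40, limma adjusted p = 0.0418) and the call was lost when any single sample other than a DU145 sample was left out. GINS4 was at 1.56 and 4.08 TPM in DUCAP and 2.95 and 3.96 TPM in VCAP, where it overlapped between these lines, and at 14.2 and 11.1 TPM in LNCaP, 7.51 and 25.02 in DU145 and 13.4 and 13.1 in PC3. It was lower in DUCAP by -1.56 (SE 0.40, limma adjusted p = 0.00795) and in VCAP by -1.19 (SE 0.40, adjusted p = 0.0282). The DUCAP call was lost without DUCAP repeat 1 and after quantile normalization, and the VCAP call was lost without either VCAP, LNCaP or PC3 repeat and under 3 scalings. GINS2 was also low in DUCAP, at 2.41 and 3.41 TPM, below all other samples, a difference of -1.25 (SE 0.38, adjusted p = 0.0187) whose call was lost after quantile normalization, after median-ratio scaling and without either DUCAP repeat. In LNCaP, GINS2 was at 13.1 and 10.7 TPM, a difference of 0.91 (SE 0.38) that was not called (adjusted p = 0.069). GINS1 went against the others in DU145, with 4.97 and 13.6 TPM against a range from 11.8 to 22.4 TPM in the other lines. Its difference there was -0.87 (SE 0.33, limma adjusted p = 0.048), and the call was lost without DU145 repeat 1 and when most other samples were left out. GINS3 ranged from 6.13 to 18.4 TPM and was higher in DU145, by 0.77 (SE 0.21, adjusted p = 0.012), with both DU145 samples above the other 8, as for POLE2, AURKB and 16.4% of all genes. That call was lost without DU145 repeat 2 and under 2 scalings.

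Of the polymerase genes, POLE2, the second subunit of DNA polymerase epsilon, set DU145 apart. POLE2 was at 31.2 and 80.4 TPM in DU145 and 20.2 and 18.3 TPM in PC3, against 7.95 and 10.0 in DUCAP, 9.79 and 10.9 in VCAP and 7.02 and 5.51 in LNCaP. Both DU145 samples lay above all others and both LNCaP samples below them, even though the DU145 repeats differed 2.57-fold. The difference was 2.18 (SE 0.29, limma adjusted p = 0.000287) in DU145, called without either repeat, and -1.35 (SE 0.29, adjusted p = 0.00405) in LNCaP, where the call was lost without LNCaP repeat 2. In DUCAP it was lower by -0.78 (SE 0.29, adjusted p = 0.0421), a call lost under 3 scalings, when any sample outside DU145 was left out and without both DU145 samples. POLE, which encodes the catalytic subunit of the same enzyme, had another pattern. It was at 29.5 and 21.01 TPM in VCAP and 17.9 and 23.8 TPM in DU145, with 17.9 and 15.8 in PC3, 13.2 and 16.1 in DUCAP and 11.1 and 11.02 in LNCaP. LNCaP was again the lowest, by -0.72 (SE 0.16, limma adjusted p = 0.00513), and VCAP was higher by 0.66 (SE 0.16, adjusted p = 0.00784), a call lost without VCAP repeat 1. POLA1, the catalytic subunit of the priming polymerase, kept between 4.62 and 12.4 TPM and was called in no line. PCNA, the clamp, was also called in none, at 193 and 151 TPM in LNCaP, 160 and 137 in PC3, 74.1 and 175 in DU145, 87.4 and 131 in DUCAP and 105 and 148 in VCAP.

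Of the 3 genes of nucleotide supply, RRM2 and TYMS were lower in DUCAP and RRM1 was not called. RRM2 was at 31.5 and 45.1 TPM in DUCAP, 55.8 and 93.5 in VCAP, 77.6 and 65.3 in LNCaP, 77.0 and 293 in DU145 and 134 and 120 in PC3. Both DUCAP samples lay below all others, as they did there for MCM2, GINS2 and 19.1% of all genes. TYMS, thymidylate synthase, was at 55.9 and 77.2 TPM in DUCAP, 66.3 and 88.3 in VCAP, 105 and 80.1 in LNCaP, 118 and 305 in DU145 and 172 and 171 in PC3. RRM2 was lower in DUCAP by -1.38 (SE 0.43, limma adjusted p = 0.019) and TYMS by -0.89 (SE 0.31, adjusted p = 0.0321), and both calls were lost after quantile normalization, after median-ratio scaling and without either DUCAP repeat. The TYMS call was also lost with the TPM rescaled without mitochondrial genes and without either LNCaP repeat, VCAP repeat 2 or either PC3 repeat. TYMS was higher in PC3, by 0.82 (SE 0.31, adjusted p = 0.0453), a call lost under 3 scalings and when any sample outside DU145 was left out. In DU145 it was higher by 1.00 (SE 0.31, adjusted p = 0.0226), which was lost after median-ratio scaling and without DU145 repeat 2, LNCaP repeat 2 or either PC3 repeat. RRM1, the large subunit of the reductase, was called in no line, with a range from 47.1 to 130 TPM, and its difference in DUCAP was -0.20 (SE 0.33, adjusted p = 0.612).

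Among the mitotic genes the chromosome proteins had the largest F statistics. TOP2A, the topoisomerase that untangles sister chromatids, was at 29.6 and 30.1 TPM in LNCaP, 63.8 and 61.5 in PC3, 140 and 172 in DUCAP, 123 and 200 in DU145 and 200 and 298 in VCAP. MKI67, which encodes the Ki-67 protein used to grade proliferation in tumours, was at 14.3 and 13.3 TPM in LNCaP, 25.6 and 26.0 in PC3, 36.6 and 49.3 in DUCAP, 36.3 and 76.6 in DU145 and 60.4 and 70.7 in VCAP. Both genes gave the same order, with LNCaP lowest, PC3 next and each clear of the rest, whereas DUCAP, DU145 and VCAP overlapped in part. In LNCaP the difference was -2.18 (SE 0.20, limma adjusted p = 3.69e-05) for TOP2A and -1.61 (SE 0.24, adjusted p = 0.000575) for MKI67. In VCAP it was 1.56 (SE 0.20, adjusted p = 0.00027) and 1.10 (SE 0.24, adjusted p = 0.00453). The LNCaP calls and that of TOP2A in VCAP held with each sample left out, and that of MKI67 in VCAP was lost without VCAP repeat 2. TOP2A was also higher in DUCAP, by 0.74 (SE 0.20, adjusted p = 0.0114), and lower in PC3, by -0.88 (SE 0.20, adjusted p = 0.00494), and these calls were lost without DUCAP repeat 2 and PC3 repeat 2 respectively. In DU145, TOP2A was higher by 0.77 and MKI67 by 0.72, and both calls were lost without DU145 repeat 2 and after median-ratio scaling. That of MKI67 was also lost after quantile normalization and without either LNCaP repeat, DUCAP repeat 1, VCAP repeat 1 or either PC3 repeat. In LNCaP the level of TOP2A was 8.34-fold lower than in VCAP by mean TPM, and that of MKI67 4.75-fold lower. The replication mean as deposited was 5.03 in LNCaP and 4.84 in VCAP on the log2 scale, an order that depended on the scale. After quantile normalization it was 4.97 and 4.71 in the LNCaP repeats and 5.04 and 5.30 in the VCAP repeats. After median-ratio scaling it was 4.91 and 4.64 in LNCaP and 4.96 and 5.25 in VCAP.

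**Figure D5:**
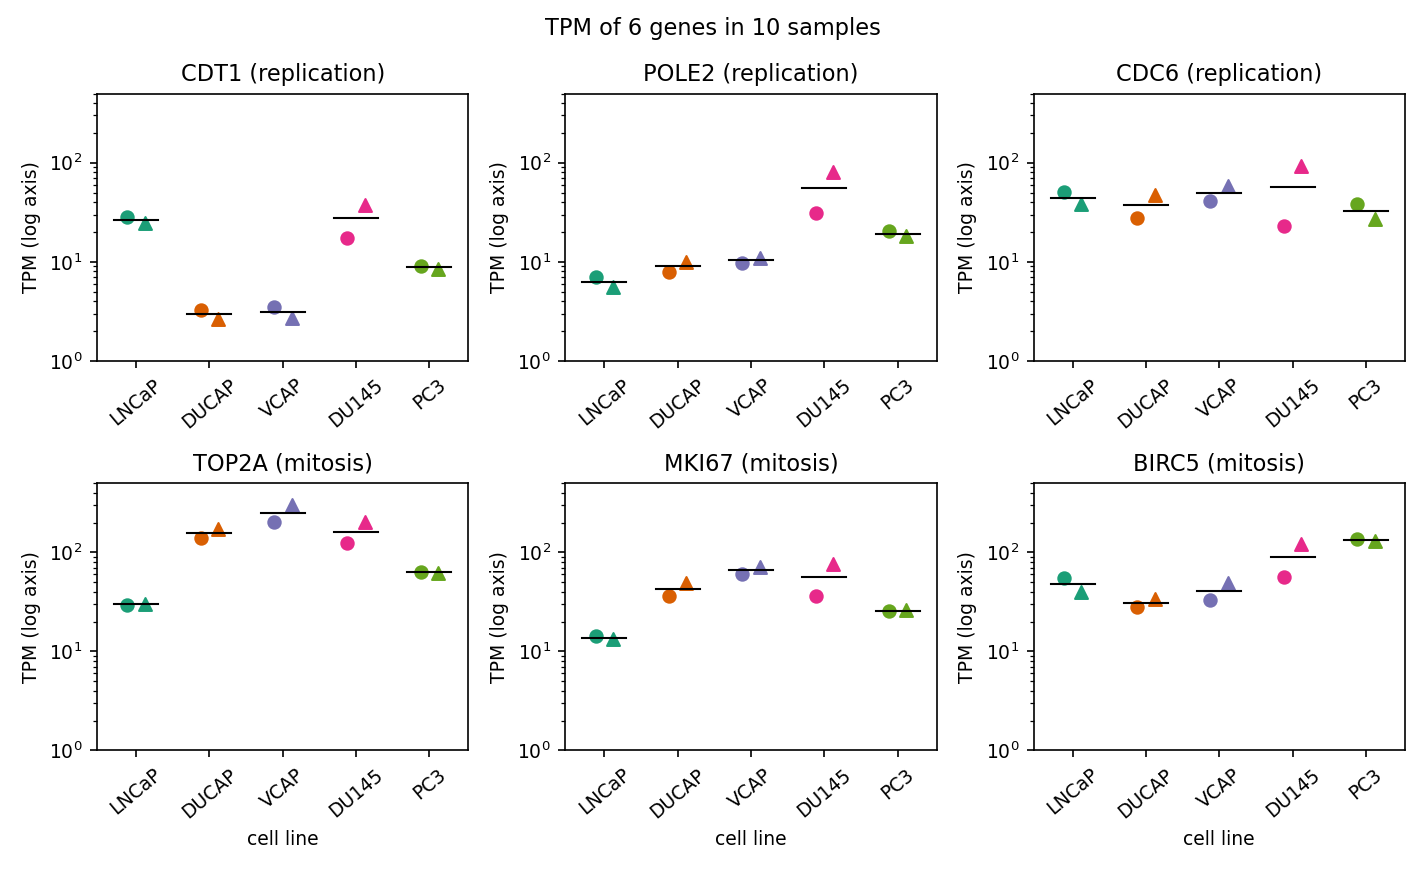
TPM on a log axis for 6 genes in the 5 lines, with circles for repeat 1, triangles for repeat 2 and a bar at the mean of the repeats. TOP2A and MKI67 are lowest in LNCaP, CDT1 is at 2.67 to 3.51 TPM in DUCAP and VCAP, POLE2 is highest in DU145 and BIRC5 is highest in PC3. No line stands clear of all others for CDC6.

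The cyclins and their kinase, which drive entry into mitosis, did not share the low level in LNCaP. CDK1 was at 116 and 78.3 TPM in LNCaP, 104 and 95.8 in PC3, 58.9 and 119 in DU145, 64.2 and 79.6 in DUCAP and 69.7 and 99.1 in VCAP. CCNB1 (cyclin B1) was at 154 and 135 TPM in LNCaP, 104 and 104 in PC3, 131 and 305 in DU145, 74.1 and 97.7 in DUCAP and 88.1 and 133 in VCAP. For both genes the LNCaP samples lay inside the range of the others, and their differences in LNCaP were 0.18 (SE 0.27, limma adjusted p = 0.578) and 0.29 (SE 0.29, adjusted p = 0.402), the most positive of the mitotic genes. None of CDK1, CCNB1, CCNB2 and CCNA2 was called in LNCaP, DUCAP, VCAP or PC3. In DU145, CCNB1 and CCNB2 were higher, by 0.88 and 0.91, and both calls were lost without DU145 repeat 2 and after median-ratio scaling. That of CCNB1 was also lost after quantile normalization and without either LNCaP repeat, DUCAP repeat 1 or either PC3 repeat. CCNB2 ranged from 36.5 to 123 TPM and CCNA2, the cyclin of S phase and G2, from 17.5 to 48.2 TPM.

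The mitotic kinases and their partners set DU145 and PC3 apart through AURKB and BIRC5, which act together in the chromosomal passenger complex. AURKB was at 53.9 and 136 TPM in DU145, above all 8 other samples, which lay between 25.6 and 39.4 TPM. The difference was 1.36 (SE 0.30, limma adjusted p = 0.00424) and held without either DU145 repeat. BIRC5 (survivin) was at 136 and 129 TPM in PC3, with 57.0 and 121 in DU145, 55.4 and 39.99 in LNCaP, 33.4 and 48.7 in VCAP and 28.1 and 34.2 in DUCAP. Both PC3 samples lay above all others, as for 21.4% of all genes, and it was the only member to do so in PC3, while MCM4 and MCM10 lay below all others there, as for 8.89% of all genes. The difference was 1.47 (SE 0.27, limma adjusted p = 0.0015) in PC3, and it held with each sample left out. In DUCAP, BIRC5 was lower by -1.10 (SE 0.27, adjusted p = 0.00683), lost without DUCAP repeat 1 and under 2 scalings, and in VCAP the difference was -0.64 (SE 0.27, adjusted p = 0.0677). PLK1, the kinase of mitotic entry and spindle assembly, was at 97.5 and 127 TPM in DUCAP, 67.0 and 104 in VCAP, 65.2 and 51.3 in LNCaP, 42.6 and 101 in DU145 and 62.6 and 54.8 in PC3. Its difference in DUCAP, 0.76 (SE 0.30), was the most positive of the mitotic genes there and was not called (adjusted p = 0.0516). AURKA and TPX2, the kinase of spindle poles and its activator, were lower in LNCaP, by -1.23 and -1.04. The AURKA call was lost without LNCaP repeat 2 and that of TPX2 without either LNCaP repeat. In DU145, AURKA was higher by 0.99, lost without DU145 repeat 2 and under 2 scalings.

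Of the 5 genes of the spindle checkpoint and the anaphase-promoting complex, UBE2C, BUB1 and TTK were lower in LNCaP, and BUB1B and CDC20 were not called there. UBE2C, the ubiquitin-conjugating enzyme of that complex, was at 99.5 and 80.0 TPM in LNCaP, 206 and 183 in PC3, 134 and 269 in DU145, 141 and 186 in DUCAP and 140 and 197 in VCAP. Both LNCaP samples lay below all others, and the difference was -0.99 (SE 0.25, limma adjusted p = 0.00938), lost without LNCaP repeat 2. The checkpoint kinases BUB1 and TTK were lower in LNCaP too, by -1.03 and -0.99, and both calls were lost without either LNCaP repeat or either PC3 repeat, and that of TTK also without DUCAP repeat 2 or VCAP repeat 2. BUB1B was called in no line, with a range from 33.1 to 81.1 TPM and a difference of -0.51 in LNCaP (adjusted p = 0.171). CDC20, the activator that the checkpoint holds back, was at 95 and 274 TPM in DU145, 110 and 90.3 in PC3, 77.4 and 59.4 in LNCaP, 52.7 and 71.3 in VCAP and 44.9 and 64.5 in DUCAP. It was higher in DU145 by 1.22 (SE 0.35, limma adjusted p = 0.0148), lost without DU145 repeat 2. Its differences in DUCAP and VCAP, -0.74 (SE 0.35, adjusted p = 0.089) and -0.51 (SE 0.35, adjusted p = 0.228), were among the lowest of the mitotic genes there and were not called.

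Of the 6 kinesins and kinetochore and spindle proteins, 4 were lower in LNCaP and 4 higher in VCAP, with KIF11, KIF20A and NUSAP1 in both. KIF20A, a motor of cytokinesis, was at 26.6 and 25.3 TPM in LNCaP and 33.1 and 35.1 TPM in PC3, against 72.4 and 94.7 in DUCAP, 81.1 and 112 in VCAP and 52.7 and 106 in DU145. LNCaP lay below PC3 and PC3 below the rest without overlap, as for TOP2A. The KIF20A difference was -1.34 (SE 0.24, limma adjusted p = 0.00162) in LNCaP, held with each sample left out, and -0.86 (SE 0.24, adjusted p = 0.0132) in PC3, lost without either PC3 repeat. In LNCaP, CENPF, KIF11 and NUSAP1 were lower as well, by -1.002, -1.18 and -0.77, with both samples below all others for each gene. The KIF11 call was lost without LNCaP repeat 2, that of NUSAP1 without either LNCaP repeat, and that of CENPF under none of the samples left out. In VCAP, CENPE, KIF11, KIF20A and NUSAP1 were higher, by 0.85, 0.75, 0.96 and 0.62, and each call was lost without VCAP repeat 2, those of CENPE and KIF11 also when samples of other lines were left out. In DUCAP, KIF20A was higher by 0.71 (SE 0.24, adjusted p = 0.0302), a call lost without VCAP repeat 1 or either DUCAP, LNCaP or PC3 repeat. KIF2C, which takes microtubules apart, ranged from 18.3 to 41.1 TPM and was called in no line. Its difference in PC3, 0.46 (SE 0.27, adjusted p = 0.164), was among the highest of the mitotic genes there.

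Further genes of both processes were read from lists of 40 genes each, which hold none of the 43. Over all genes tested, 38.2% were higher and 24.2% lower in LNCaP, 11.1% and 57.7% in DUCAP, and 17.3% and 46.6% in VCAP. In DU145 these shares were 40.7% and 22.3%, and in PC3 43.2% and 24.7%. In LNCaP, 18 of the other mitotic genes were lower and 2 higher, led by ASPM, a spindle pole protein, at -1.65 (SE 0.24, limma adjusted p = 0.000516). At the other end, SPC24 of the kinetochore was higher by 1.02 (SE 0.24, adjusted p = 0.00556). Of the other replication genes 5 were higher and 2 lower in LNCaP, with TICRR, a factor of origin firing, at -1.04 (SE 0.31, adjusted p = 0.0178). The median was -0.53 for the mitotic list and -0.03 for the replication list, with 0.18 over all genes tested. In DUCAP, 13 of the other replication genes were lower and none higher, a share of 32.5% that was below the 57.7% of all genes. POLE4, a small subunit of polymerase epsilon, was at -2.35 there (SE 0.21, limma adjusted p = 3.2e-05). For the other mitotic genes DUCAP had 3 higher, with KIF4A at 0.97, and 5 lower, with TACC3 at -1.295. In VCAP the counts were 5 higher and 3 lower for mitosis, from ESPL1 (separase) at 1.28 to CKS2 at -0.85, and 6 higher and 8 lower for replication, from TICRR at 1.34 to POLE4 at -2.01. DU145 had 16 higher and none lower for mitosis, with ANLN at 1.55 and ZWINT the lowest at -0.56 (adjusted p = 0.224), and 14 higher and 2 lower for replication, from RPA3 at 1.62 to POLD2 at -0.95. PC3 had 4 in each direction for mitosis, from ZWINT at 1.90 to CDC25C at -1.18, and 9 higher and 6 lower for replication, with RECQL4 at 1.89. Between the DU145 repeats, 39 of 40 genes of each list were higher in repeat 2, as 45.8% of all genes were. The median difference was -1.15 for mitosis and -1.01 for replication, and the 43 members were higher in repeat 2 as well.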

How the data were processed

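RNA of 10 untreated samples, 2 biological repeats of each of 5 cell lines, was sequenced from stranded, polyA-enriched libraries with added ERCC controls. The deposited values are TPM per gene, made by the authors; their processing notes name FastQC 0.11.9, Trim Galore 0.6.5, STAR 2.7.2b and RSEM 1.3.3. How values of symbols shared by several genes were joined is not given in the sources used here, and no read counts were used, so the depth per sample is unknown.

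TPM were taken as log2(TPM + 1). The 17520 genes that reached 1 TPM in 2 or more samples were fitted with limma 3.58.1 (R 4.3.3), with a trend in the prior variance, each line against the mean of the other 4 and by an F test, with Benjamini-Hochberg adjustment and a threshold of 0.05. This fit takes a single spread per gene for all lines. The median SD between repeats of the members was 0.454 with DU145 and 0.258 without it. The SE and p-values of members can therefore be too small for DU145 and too large for the other lines. On simulated data for the line comparisons, a log2 change of 1.5 was put into 200 of 17520 genes drawn at random. Between 85% and 89.5% of them were called, none with the wrong sign, and between 3.83% and 6.28% of all calls were false. The median SD between repeats was 0.200 over all genes and 0.454 over the members. This recovery therefore does not carry over to the members or to smaller changes. The simulated noise was independent between genes, with the same SD in all lines, and no other genes differed. Far more genes were called in each line of the data, so the share of false calls does not carry over either. The alternatives were a pseudocount of 0.1, quantile normalization, median-ratio scaling, TPM rescaled without the 37 mitochondrial genes, no filter, no trend, the repeat number as a block, a 2-fold minimum and leaving out samples.

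The members, gene lists, motifs and tests were chosen with earlier results of these data known. Named with the value in every sample are 14 genes listed in advance (MCM2, MCM5, MCM7, CDC6, PCNA, RRM2, TYMS, MKI67, TOP2A, CDK1, CCNB1, PLK1, UBE2C and BIRC5) and those with the largest and smallest F. Named with a difference are the most positive and most negative members of each group per line, members clear of all other samples where these were at most 5, and the extremes of the other lists, except where these are not reported here. Values given for further members (MCM4, CDC45, GINS4, POLE, POLE2, AURKB, CDC20 and KIF20A in each sample, among others) were chosen after their values were seen.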

Additional observations from a re-analysis of the deposited data

How the results depend on the processing

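As reported, the members called numbered 14 for LNCaP, 12 for DUCAP and 11 for VCAP, then 14 for DU145 and 5 for PC3, and 23 for any difference between the lines. With 1 sample left out, where the lone sample of a line is assumed to vary like the others, they lay between 6 and 26, 2 and 22, 3 and 21, 10 and 33, 1 and 19, and 11 and 36. Without both DU145 samples, an alternative chosen after seeing the data, they were 23 in LNCaP, 20 in DUCAP, 19 in VCAP and 19 in PC3. With no filter they were 7 in DUCAP, 6 in VCAP, 3 in PC3 and 14 for any difference. With a 2-fold minimum they were 6 in DUCAP, 6 in VCAP, 6 in DU145 and 2 in PC3, and that minimum has no meaning for the F test. After quantile normalization PC3 had 18, after median-ratio scaling PC3 had 13 and DU145 8, and without mitochondrial genes PC3 had 9. The cause was not tested, apart from the fewer samples and the changed scale themselves. No called member changed direction under any alternative. The balance against the other 4 lines lay between -0.86 and -0.80 for LNCaP, -0.22 and -0.15 for PC3, -0.196 and 0.059 for DU145, 0.57 and 0.66 for DUCAP and 0.34 and 0.59 for VCAP with 1 sample left out. With the 6 shared or marker genes removed it was -0.67 in LNCaP and 0.27 in VCAP. As a median over the members the DU145 value of -0.07 turned to 0.0039. The difference between the repeats of LNCaP, mitotic minus replication, was -0.04 and turned to 0.012 with those 6 genes removed. With the repeat number as a block 14, 15, 11, 18 and 7 members were called in LNCaP, DUCAP, VCAP, DU145 and PC3, and 27 for any difference. Same-numbered samples of different lines deviated together with a mean correlation of 0.0092, from -0.19 to 0.25, over 10 pairs of lines. The correlations were most positive among DUCAP, VCAP and DU145, from 0.18 to 0.25, and most negative for LNCaP with DU145. The mean over the pairs therefore cannot show whether the repeat numbers paired the samples of some lines. TPM hold no depth, so no counting error can be given for the low genes such as CDT1 and GINS4 in DUCAP and VCAP.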
